A study of Mus musculus with 18 samples.

Results

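A set of 32 genes, of the 56551 in the deposited table, were silent in wild-type (WT) mouse embryonic stem cells, present in both groups labelled as lacking every form of Polycomb repressive complex 1 (PRC1), and under 1 TPM in the group labelled as lacking the Pcgf genes of its variant form. They were chosen by group mean: under 1 TPM in WT, 2 TPM or more in Ring1a/b-dKO, 2 TPM or more in Pcgf-6KO and under 1 TPM in Pcgf-4KO, with symbols starting with Hox dropped. TPM, the unit of all levels, is a length-corrected share of a library's RNA scaled to a total of 1000000. All libraries came from mouse embryonic stem cells. Ring1a/b-dKO (the double knockout) is labelled as lacking Ring1a and Ring1b, Pcgf-6KO as lacking Pcgf1 to Pcgf6, Pcgf-4KO as lacking Pcgf1, Pcgf3, Pcgf5 and Pcgf6, Ring1b-KO and Ring1a-KO as lacking the named gene, and WT is the control. Each of the 6 groups has 3 libraries, 18 in all. The labels name no strain, clone, medium or way of deletion. They leave unsaid whether replicates were separate cultures, so p-values measure only the spread between these samples, which may be technical.

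PRC1 attaches ubiquitin to histone H2A and holds genes of later development off in pluripotent cells. Ring1a or Ring1b supplies its ligase activity, and every complex holds a single Pcgf protein. Canonical PRC1 carries Pcgf2 or Pcgf4 (the product of Bmi1) together with Cbx and Phc proteins, binds the histone mark left by PRC2 and compacts chromatin, while variant PRC1, built mainly on Pcgf1, Pcgf3, Pcgf5 or Pcgf6, deposits most of the H2A mark.

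The genes could be called specific to the loss of canonical PRC1 only as far as the rule goes. No group lacks canonical PRC1 alone, since the double knockout and Pcgf-6KO are labelled as lacking every form. Among 685 genes under 1 TPM in WT and at 2 TPM or more in both of these groups, 31 were Hox genes. Of the other 654, 503 were also at 2 TPM or more in Pcgf-4KO, 119 lay between 1 and 2 TPM there, and 32 lay under 1 TPM. Of the 31 Hox genes, 18 also lay under 1 TPM in Pcgf-4KO, and the rule dropped them. With Hox genes set aside, the genes described here are the small low end of a wider class. They are called the low-Pcgf-4KO genes below.

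By annotation they were a mixed set. Protein-coding genes with an established symbol made up 11 of them, a subset taken by annotation after the values had been seen: Meis2, Tfap2a, Dlx2, Nkx2-3, Pax3, Alx1, Dlx5, Nrn1, Vdr, Nkx2-2 and Lhx1. The other 21 were 10 small RNA genes, 4 pseudogenes, 2 long noncoding RNAs, 2 readthrough or model protein-coding genes and 3 assembled transcripts with no annotation. Protein-coding genes were 40.6% of the low-Pcgf-4KO genes, against 85.5% of the 503 genes that were high in Pcgf-4KO as well. The thresholds were met in each single library, and not only by the group mean, for 6 genes: Meis2, Dlx2, Nkx2-3, Alx1, Dlx5 and Vdr.

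The libraries held 15807 to 15835 genes at 1 TPM or more in the double knockout, 16236 to 16585 in Pcgf-6KO, 15289 to 15368 in Pcgf-4KO, 15528 to 15668 in Ring1b-KO, 14223 to 14421 in Ring1a-KO and 14207 to 14225 in WT. Sequencing depth is unknown, because TPM carries no read counts. The targeted genes were read as a check of the labels. Rnf2, the gene of Ring1b, averaged 22.8 ± 2.94 TPM in the double knockout and 49.4 ± 3.13 in Ring1b-KO, against 71.3 ± 5.24 in WT (SD, n = 3). Ring1, the gene of Ring1a, averaged 6.09 ± 3.33 TPM in the double knockout and 4.05 ± 1.31 in Ring1a-KO, against 7.21 ± 0.182 in WT. Its double knockout libraries had 2.74, 6.12 and 9.4 TPM, the last above every WT library, so Ring1 was not low in each of them. Pcgf6 averaged 10.6 ± 0.780 TPM in Pcgf-6KO and 0.0567 ± 0.0513 in Pcgf-4KO, against 53.0 ± 0.258 in WT, and Pcgf1 averaged 3.03 ± 1.11 and 1.23 ± 1.20, against 10.9 ± 0.995. Pcgf2 averaged 16.8 ± 1.28 TPM in Pcgf-6KO and 55.3 ± 2.13 in Pcgf-4KO, against 68.6 ± 4.71 in WT. Bmi1 averaged 15.6 ± 1.09 TPM in Pcgf-6KO and 11.4 ± 2.42 in Pcgf-4KO, against 1.60 ± 0.824 in WT, so the libraries labelled Pcgf-6KO were not low in it. Pcgf3 and Pcgf5 were not low either, at 12.4 ± 2.50 and 22.1 ± 1.11 TPM in Pcgf-6KO, against 13.2 ± 0.430 and 9.55 ± 0.555 in WT. In Pcgf-4KO, also labelled as lacking both, they averaged 11.8 ± 0.501 and 14.5 ± 1.24 TPM. The sources used here do not give the deleted exons, and a gene-level TPM does not show the loss of an exon.

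All 10 embryonic stem cell markers were at 1 TPM or more in every group. Their summed level was 3127 to 3432 TPM in the double knockout, 1993 to 2438 in Pcgf-6KO, 3892 to 4019 in Pcgf-4KO, 7761 to 8399 in Ring1b-KO, 4472 to 4816 in Ring1a-KO and 4747 to 4818 in WT. Markers of other cell types moved as well. The 30 trophoblast genes summed to 2496 to 2519 TPM in the double knockout, 7943 to 8009 in Pcgf-6KO, 2746 to 2775 in Pcgf-4KO, 664 to 675 in Ring1b-KO, 688 to 719 in Ring1a-KO and 455 to 459 in WT. The numbers of them at 1 TPM or more were, in the same order of groups, 20, 22, 21, 20, 16 and 14, and the placental lactogen gene Prl3b1 was listed at 0 in every group. The 21 endoderm markers summed to 1881 to 1946 TPM in the double knockout, 1909 to 2231 in Pcgf-6KO, 1520 to 1534 in Pcgf-4KO, 1329 to 1352 in Ring1b-KO, 1410 to 1532 in Ring1a-KO and 1298 to 1309 in WT, with 16, 16, 16, 17, 9 and 9 at 1 TPM or more. Ttr was listed at 0 in the double knockout, Ring1a-KO and WT. The 20 fibroblast markers summed to 186 to 193 TPM in the double knockout, 257 to 277 in Pcgf-6KO, 146 to 148 in Pcgf-4KO, 259 to 270 in Ring1b-KO, 437 to 470 in Ring1a-KO and 372 to 394 in WT, while the numbers at 1 TPM or more were 12, 12, 10, 9, 8 and 6. The 16 neural markers summed to 176 to 183 TPM in the double knockout, 89.7 to 100 in Pcgf-6KO, 145 to 149 in Pcgf-4KO, 235 to 244 in Ring1b-KO, 486 to 544 in Ring1a-KO and 365 to 370 in WT, with 11 at 1 TPM or more in each group except Pcgf-6KO, which had 12. The part of these changes in the results below was not tested, and in bulk RNA more cells of a type and more RNA per cell cannot be told apart.

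RefSeq promoters, from 250 bases before to 50 after an annotated start, were matched by symbol for 7 of the low-Pcgf-4KO genes: Meis2, Tfap2a, Dlx2, Nkx2-3, Vdr, Nkx2-2 and Lhx1. The promoters of the 4 with the highest lower-of-the-pair level in the double knockout and Pcgf-6KO are printed, because CpG-rich starts are where PRC1 is known to bind. They are on GRCm38.p6, 5′ to 3′ on the gene's strand, with capitals marking each CpG dinucleotide. Meis2 is at chr2:116064570-116064869 (minus strand), Tfap2a at chr13:40734871-40735170 (minus strand), Dlx2 at chr2:71546705-71547004 (minus strand) and Nkx2-3 at chr19:43612075-43612374 (plus strand).
Meis2: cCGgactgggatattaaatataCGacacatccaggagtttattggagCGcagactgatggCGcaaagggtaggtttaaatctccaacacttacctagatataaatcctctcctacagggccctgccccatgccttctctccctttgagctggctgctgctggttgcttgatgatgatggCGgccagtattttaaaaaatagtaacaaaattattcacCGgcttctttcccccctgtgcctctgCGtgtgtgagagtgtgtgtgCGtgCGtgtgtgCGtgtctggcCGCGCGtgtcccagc
Tfap2a: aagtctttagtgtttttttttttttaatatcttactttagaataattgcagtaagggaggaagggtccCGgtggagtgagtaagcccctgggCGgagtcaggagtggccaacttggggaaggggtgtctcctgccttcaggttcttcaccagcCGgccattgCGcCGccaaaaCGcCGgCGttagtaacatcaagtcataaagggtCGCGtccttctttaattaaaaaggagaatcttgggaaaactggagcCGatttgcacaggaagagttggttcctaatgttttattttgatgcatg
Dlx2: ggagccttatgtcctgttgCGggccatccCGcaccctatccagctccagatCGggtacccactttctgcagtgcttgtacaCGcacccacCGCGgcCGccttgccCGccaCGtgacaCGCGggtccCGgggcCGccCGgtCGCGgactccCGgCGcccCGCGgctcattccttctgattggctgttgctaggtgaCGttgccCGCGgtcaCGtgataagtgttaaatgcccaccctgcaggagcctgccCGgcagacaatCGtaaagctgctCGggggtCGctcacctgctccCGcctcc
Nkx2-3: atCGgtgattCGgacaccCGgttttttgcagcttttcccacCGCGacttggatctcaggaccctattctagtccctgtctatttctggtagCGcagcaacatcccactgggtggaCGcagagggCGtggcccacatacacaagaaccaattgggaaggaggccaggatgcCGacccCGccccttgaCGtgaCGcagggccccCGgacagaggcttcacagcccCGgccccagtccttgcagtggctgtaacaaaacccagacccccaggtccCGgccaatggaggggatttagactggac

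The window of Dlx2 held 29 CpG, that of Nkx2-3 15, that of Meis2 13 and that of Tfap2a 11. The starts used for Dlx2 and Nkx2-3 are the 5′ ends of the GENCODE genes. Those of Meis2, Tfap2a, Vdr and Nkx2-2 lie 1220, 3456, 2334 and 7841 bases inside them, so other starts of these genes were not read. Over the 7 promoters the median was 15 CpG, with a range of 11 to 31, against a median of 20 in the promoters of the genes tested and 7 in all 27025 promoters. The median GC content was 60% in the 7, 60.7% in the genes tested and 52.7% in all promoters. A GC box, GGGCGG on either strand, was in 5 of the 7, 63.7% of the promoters of genes tested and 36.0% of all. The E-box CACGTG was in 2 of the 7, Dlx2 and Nkx2-2, in 10.1% of those tested and in 7.20% of all. A TATA box, TATAAA on either strand, was in Meis2 alone of the 7, in 7.12% of those tested and in 14.2% of all. No match to the E2F-type motif TTCCCGC was found in the 7, against 8.43% and 4.69%. In 310 promoters of silent genes also at 2 TPM or more in Pcgf-4KO, the medians were 19 CpG and 63.3% GC. There the GC box was in 65.5%, the E-box in 10.6%, the TATA box in 6.45% and the E2F-type motif in 7.74%. The GC box, the E-box and the E2F-type motif each hold a CpG and so overlap the count of CpG. A match describes letters in the window only.

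Levels of the 11 protein-coding genes are given first as medians, whose order single genes did not all follow. The median over the 11 of the group mean was 3.89 TPM in the double knockout, 4.06 in Pcgf-6KO, 0.640 in Pcgf-4KO, 1.09 in Ring1b-KO, 0.0933 in Ring1a-KO and 0.0533 in WT. The rule set the first 3 and the last of these. Ring1b-KO and Ring1a-KO were not used by the rule: Ring1b-KO means were at 1 TPM or more in 6 of the 11 and at 2 TPM or more in Meis2 and Tfap2a, and Ring1a-KO means were under 1 TPM in all 11.

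Homeobox genes formed the largest named group, with 8 of the 11. Meis2 encodes a TALE homeodomain protein that binds DNA together with Hox and Pbx proteins, and lies on the minus strand of GRCm38 at chr2:115863064-116065839. It had 6.55, 4.85 and 6.39 TPM in the double knockout, 5.12, 5.89 and 8.29 in Pcgf-6KO, 0.59, 0.68 and 0.40 in Pcgf-4KO, 5.17, 4.98 and 5.15 in Ring1b-KO, 0.02, 1.67 and 0.11 in Ring1a-KO, and 0.09, 0.29 and 0.44 in WT. The Ring1b-KO libraries overlapped the range of the double knockout, and 1 Ring1a-KO library (replicate 2) stood above the other WT and Ring1a-KO libraries.

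Dlx2, a regulator of forebrain interneurons and of the branchial arches, lies at chr2:71543408-71546754 (minus strand). Its level was 3.77, 4.07 and 5.72 TPM in the double knockout, 10.01, 10.21 and 10.33 in Pcgf-6KO, 0.60, 0.61 and 0.54 in Pcgf-4KO, 1.33, 1.13 and 2.11 in Ring1b-KO, 0.05, 0.12 and 0.11 in Ring1a-KO, and 0.05, 0.11 and 0 in WT. All Pcgf-6KO libraries were above all double knockout libraries, and Ring1b-KO was above Pcgf-4KO without overlap. Dlx5, which acts in bone and in the face, lies at chr6:6877805-6882085 (minus strand). It had 2.79, 3.24 and 3.33 TPM in the double knockout, 2.47, 2.45 and 3.01 in Pcgf-6KO, 0.70, 0.41 and 0.55 in Pcgf-4KO, 0.26, 1.10 and 0.50 in Ring1b-KO, 0, 0.05 and 0.15 in Ring1a-KO, and 0.06, 0 and 0 in WT. Of its Ring1b-KO libraries 1 was below, 1 within and 1 above the Pcgf-4KO range.

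Nkx2-3, a factor of gut and spleen mesenchyme at chr19:43612325-43615892 (plus strand), was even within groups. It had 4.62, 3.80 and 3.89 TPM in the double knockout, 4.34, 4.79 and 4.53 in Pcgf-6KO, 0.51, 0.70 and 0.55 in Pcgf-4KO, 1.04, 1.13 and 1.09 in Ring1b-KO, 0.12, 0.03 and 0 in Ring1a-KO, and 0, 0 and 0.03 in WT. Ring1b-KO stood between the Pcgf-4KO and the double knockout ranges, without overlap. Nkx2-2, which patterns the ventral neural tube and pancreatic islets, lies at chr2:147177546-147194243 (minus strand). Its level was 1.71, 3.08 and 1.75 TPM in the double knockout, 2.34, 2.34 and 2.04 in Pcgf-6KO, 0.35, 0.49 and 0.38 in Pcgf-4KO, 0.26, 0.34 and 0.68 in Ring1b-KO, 0.06, 0 and 0 in Ring1a-KO, and 0.09, 0.08 and 0.07 in WT. Its mean in the double knockout reached 2 TPM through 1 library, the other libraries being under it.

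Pax3, a paired-box factor of neural crest and muscle precursors, lies at chr1:78101267-78197134 (minus strand). It had 3.94, 4.63 and 4.05 TPM in the double knockout, 3.51, 3.78 and 4.88 in Pcgf-6KO, 0.64, 1.11 and 0.67 in Pcgf-4KO, 0.76, 1.12 and 0.99 in Ring1b-KO, 0.04, 0.02 and 0.12 in Ring1a-KO, and 0.13, 0 and 0.02 in WT. The Ring1b-KO and Pcgf-4KO libraries overlapped, both above WT. Alx1, a factor of craniofacial mesenchyme at chr10:102998707-103030215 (minus strand), had 4.38, 3.37 and 3.91 TPM in the double knockout, 6.74, 7.72 and 7.32 in Pcgf-6KO, 0.99, 0.48 and 0.61 in Pcgf-4KO, 0.99, 0.81 and 0.85 in Ring1b-KO, 0.12, 0.15 and 0.12 in Ring1a-KO, and 0.12, 0.19 and 0.10 in WT. Its Ring1a-KO and WT libraries overlapped and lay below all others.

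Lhx1, a LIM homeodomain factor of the head organizer and kidney at chr11:84518284-84525535 (minus strand), was uneven within groups. It had 2.07, 2.33 and 2.75 TPM in the double knockout, 1.64, 1.42 and 3.20 in Pcgf-6KO, 0.56, 0.54 and 0.82 in Pcgf-4KO, 0.54, 0.39 and 1.62 in Ring1b-KO, 0.03, 0.01 and 0 in Ring1a-KO, and 0.12, 0 and 0.02 in WT. A single Pcgf-6KO library and a single Ring1b-KO library, replicate 3 in each, were well above the rest of their group.

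Tfap2a, the AP-2 factor of neural crest and surface ectoderm, was the only one of the 11 from the list of other developmental transcription factors. It lies at chr13:40715302-40738376 (minus strand) and had 4.99, 5.22 and 5.75 TPM in the double knockout, 9.71, 8.52 and 9.74 in Pcgf-6KO, 1.02, 0.85 and 1.09 in Pcgf-4KO, 3.65, 3.96 and 3.37 in Ring1b-KO, 0.22, 0.30 and 0.20 in Ring1a-KO, and 0.57, 0.39 and 0.21 in WT. In Pcgf-4KO 2 of its 3 libraries were above the threshold of 1 TPM.

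Nrn1 and Vdr are not transcription factors of the homeobox kind. Nrn1 encodes neuritin, a membrane-anchored protein that promotes neurite growth, and lies at chr13:36725361-36735131 (minus strand). It had 2.28, 3.56 and 2.61 TPM in the double knockout, 1.98, 2.73 and 2.96 in Pcgf-6KO, 0.37, 1.10 and 0.48 in Pcgf-4KO, 1.65, 2.12 and 1.92 in Ring1b-KO, 0.19, 0 and 0.23 in Ring1a-KO, and was listed at 0 in all 3 WT libraries. Its Ring1b-KO libraries were above all Pcgf-4KO libraries. Vdr encodes the nuclear receptor of vitamin D and lies at chr15:97854425-97910630 (minus strand). It had 2.13, 2.27 and 2.19 TPM in the double knockout, 2.27, 2.31 and 2.71 in Pcgf-6KO, 0.75, 0.98 and 0.94 in Pcgf-4KO, 1.22, 1.36 and 1.20 in Ring1b-KO, 0.09, 0.15 and 0.15 in Ring1a-KO, and 0.19, 0.12 and 0.11 in WT. Of the 11 it had the highest level in Pcgf-4KO relative to Pcgf-6KO.

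**Figure D1:**
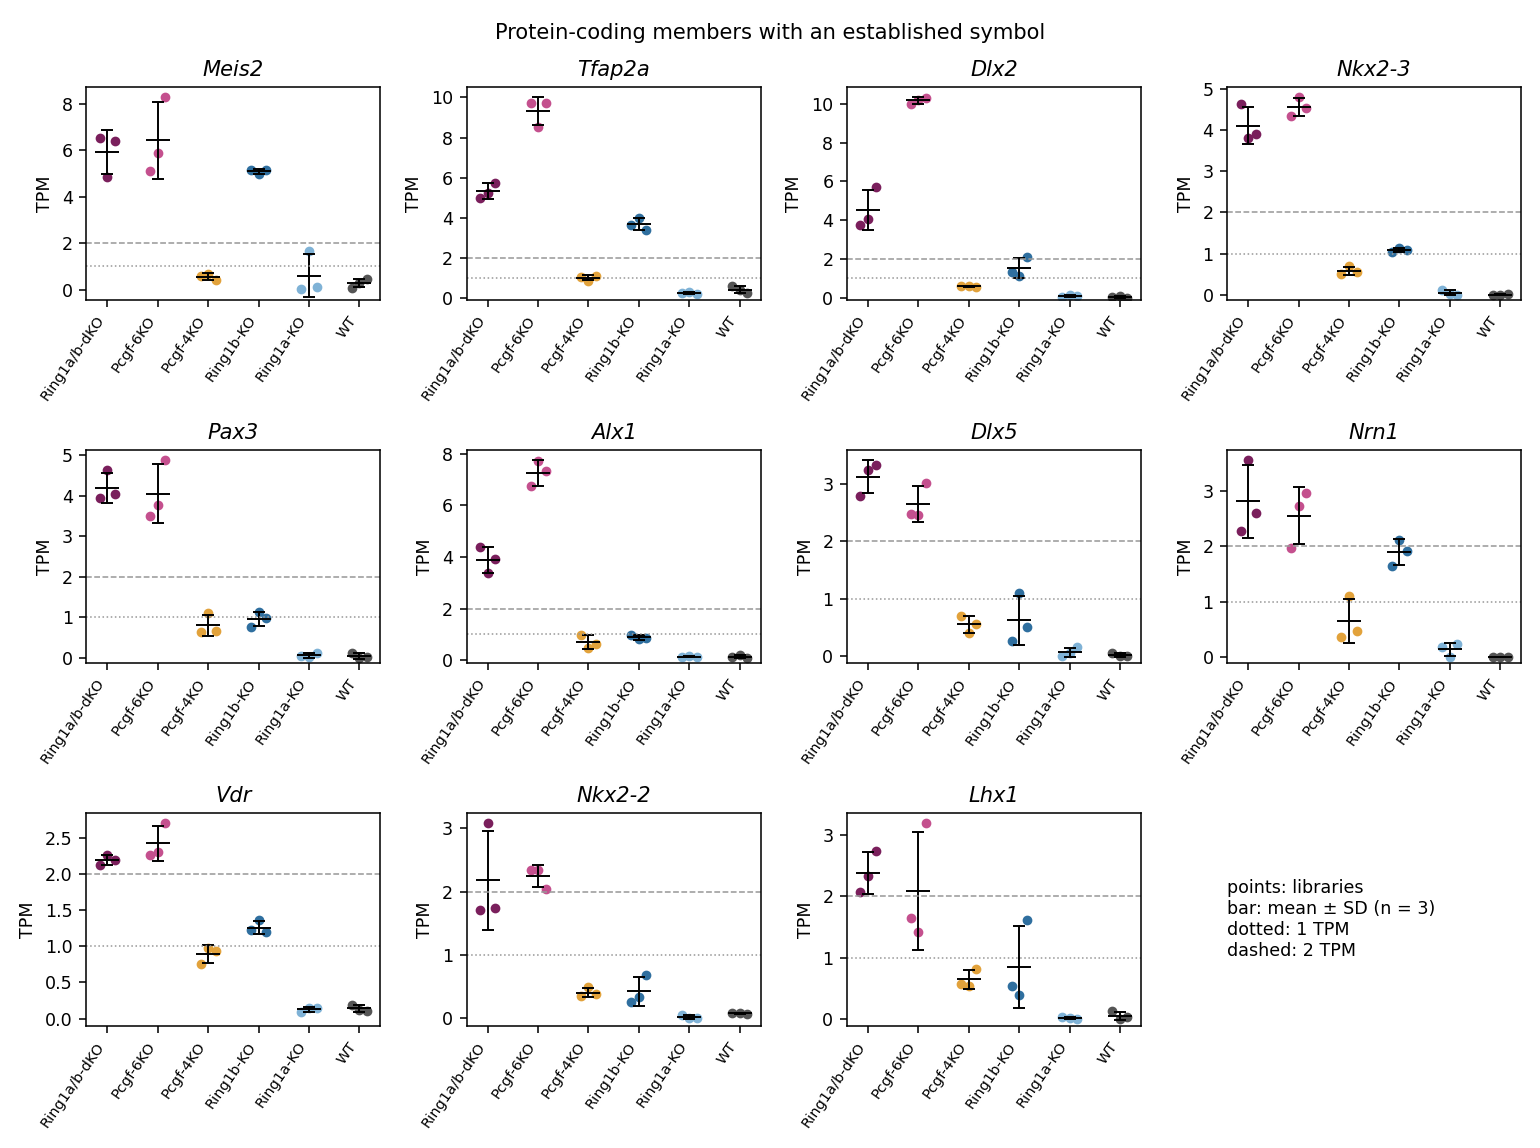
TPM of the 11 protein-coding genes (linear vertical axes that differ between panels) in each library (points), by group, with the mean ± SD of 3 libraries (bars) and the thresholds of 1 TPM (dotted) and 2 TPM (dashed). Pcgf-4KO means lie between 0.407 and 0.987 TPM, Ring1b-KO means between 0.427 and 5.10 TPM, and Ring1a-KO and WT means are at most 0.600 and 0.390 TPM.

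The comparison of Ring1b-KO with Ring1a-KO asks whether levels differed between the knockouts of the catalytic subunits, and neither group was used to choose the genes. The double knockout, which the rule required at 2 TPM or more, is labelled as lacking both subunits. The choice could therefore favour genes that respond to the loss of either, and it is not fully independent of this comparison. Ring1b-KO was higher for each of the 11 protein-coding genes, in limma's test on log2(TPM + 1) across all 17842 genes that reached 1 TPM in 3 or more libraries. A gene was called at a Benjamini-Hochberg adjusted p under 0.05. Of the 32 genes 30 passed that filter, and 12 of the 30 were called higher and 1 lower. The background is that 33.9% of all tested genes were called higher and 17.1% lower. Among tested genes under 1 TPM in WT the shares were 44.6% and 3.06%, so 12 of 30, or 40.0%, is near the background, and 11 of the 12 were the protein-coding genes. Snord15b and Gm25745 did not pass the filter. A gene could pass it through the groups used by the rule: Nkx2-2 had at most 0.68 TPM in Ring1b-KO and 0.06 in Ring1a-KO. Pax3, Alx1, Dlx5 and Lhx1 also had fewer than 3 libraries at 1 TPM in these groups together. All of these genes were thus tested only because the rule made other groups high. The comparisons with WT below used the same filter. The scale compresses changes of genes near 1 TPM.

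Meis2 averaged 5.10 ± 0.104 TPM in Ring1b-KO and 0.600 ± 0.928 in Ring1a-KO (SD, n = 3 each), a log2 change of 2.08 ± 0.28 (SE, limma adjusted p = 1.43e-05). Tfap2a averaged 3.66 ± 0.295 TPM in Ring1b-KO and 0.240 ± 0.0529 in Ring1a-KO, a log2 change of 1.91 ± 0.10 (limma adjusted p = 6.44e-10). Nrn1 was next, with a log2 change of 1.35 ± 0.17 (limma adjusted p = 6.88e-06), then Dlx2 with 1.19 ± 0.14 (limma adjusted p = 3.37e-06). The changes of Vdr and Nkx2-3 were 1.0 ± 0.08 and 0.99 ± 0.09, and those of Pax3, Lhx1, Alx1 and Dlx5 were 0.88 ± 0.13, 0.81 ± 0.22, 0.74 ± 0.11 and 0.57 ± 0.15. Nkx2-2 had the smallest, 0.47 ± 0.14 (limma adjusted p = 0.0126). In all 11 every Ring1b-KO library was above every Ring1a-KO library, as in 38% of all tested genes. Among the other tested genes of the set, only Gm11839 and Gm31166 met this condition. The share over the 30 was therefore much closer to the background than that over the 11. The median change was 0.47 over the 30 tested genes of the set and 0.99 over the 11, which were taken after the values had been seen, against 0.12 over all genes tested.

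Nkx2-2 lost its call without Ring1b-KO replicate 3, with a log2 change of 0.35 (limma adjusted p = 0.0692). Dlx5 lost it when the fit held only these groups (limma adjusted p = 0.0543). In the wider class, 377 of the 503 genes at 2 TPM or more in Pcgf-4KO were called higher and 6 lower (75.0% higher, median 0.79), and 66 of the 119 genes between were higher and 3 lower (55.5%, median 0.52).

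Among the other tested genes of the set, the processed pseudogene Gm11839 was called higher, with a log2 change of 0.65 (limma adjusted p = 0.00192). The small nucleolar RNA gene Gm25835 was called lower, listed at 0 in all 3 Ring1b-KO libraries, against 0, 202 and 35.6 TPM in Ring1a-KO. Without Ring1a-KO replicate 2, its log2 change was -2.60 with an adjusted p of 0.227 (limma), against -4.29 and 0.0461 with all libraries, and the call was lost under 9 alternatives and kept under 4. Small RNA genes took 0.136, 1.59 and 0.800% of TPM in Ring1a-KO replicates 1 to 3, against 0.175 to 0.437% in the libraries of the other groups. Without Ring1a-KO replicates 2 and 3, an alternative added after the data were seen in which the lone Ring1a-KO library is assumed to vary like the other groups, 9 genes were called higher, all protein-coding, and Nkx2-2, Lhx1 and Gm11839 were no longer called.

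**Figure D2:**
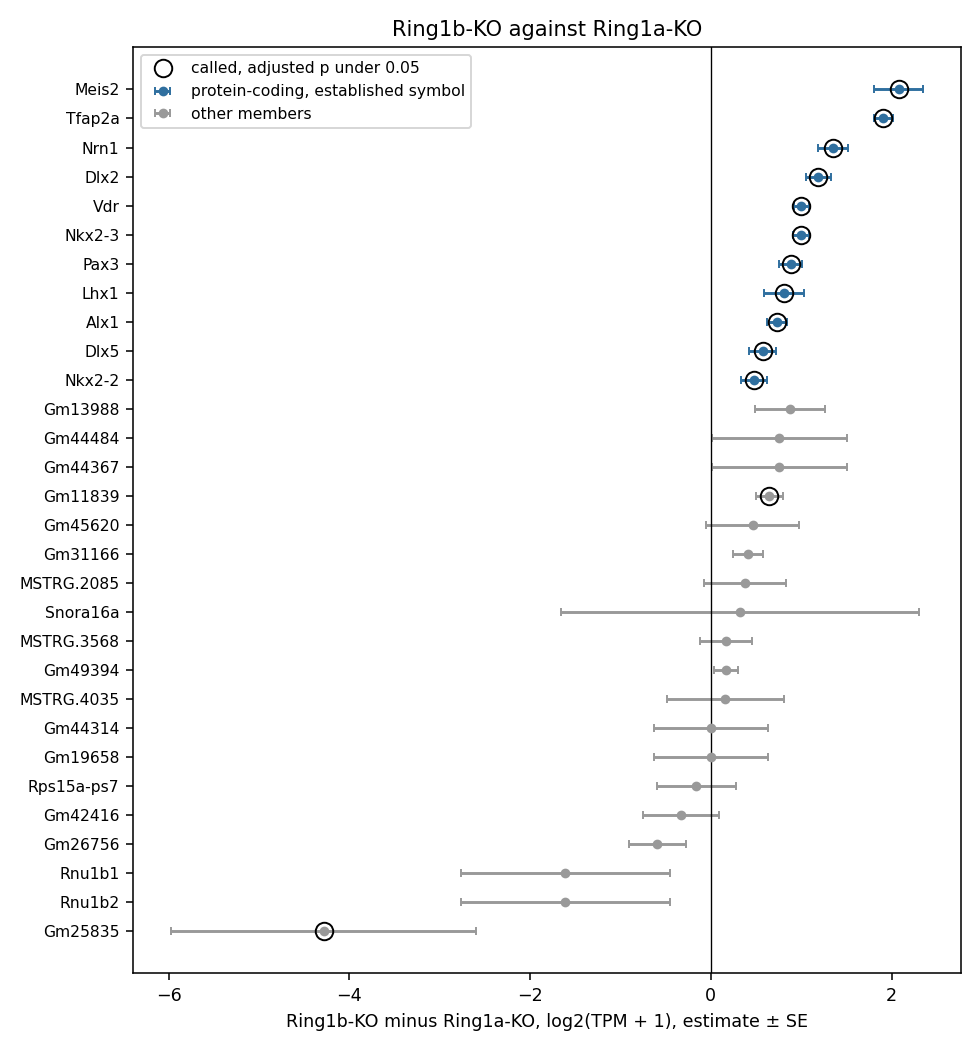
Difference of Ring1b-KO minus Ring1a-KO in log2(TPM + 1) for each of the 30 genes tested (points, with the limma SE as bars); rings mark an adjusted p under 0.05. The 11 protein-coding genes lie between 0.47 and 2.08, all to the right of 0 and all ringed, and the widest errors are those of some small RNA genes.

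Against WT the 11 protein-coding genes were also called higher in Ring1b-KO. Since WT had to be under 1 TPM for a gene to be chosen, a rise was easier to reach than a fall. Of 30 tested, 13 were called higher and 0 lower (also 0 lower at an unadjusted p under 0.05, limma being the only tool run). This is 43.3% of them, against a background of 34.7% of all tested genes and 49.1% of those under 1 TPM in WT. The share was thus below that of the tested genes under 1 TPM in WT. All 11 protein-coding genes were among the 13, with Gm11839 and Gm49394. In the wider class, 414 of the 503 genes at 2 TPM or more in Pcgf-4KO were called higher and 2 lower (82.3% higher). Of the 119 genes between, 74 were higher and 0 lower (62.2%). The log2 change was 2.27 ± 0.28 for Meis2, 1.75 ± 0.10 for Tfap2a and 1.53 ± 0.17 for Nrn1 (limma adjusted p = 5.53e-06, 1.73e-09 and 1.73e-06), and its median was 0.72 over the 30 tested genes and 0.99 over the 11, against 0.13 over all genes tested. Nkx2-2 was again the weakest, at 0.39 ± 0.14 (limma adjusted p = 0.0339). That call was lost without Ring1b-KO replicate 3 (adjusted p = 0.16) and without any of the 3 WT libraries (0.0672, 0.0712 and 0.0762).

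In Ring1a-KO 1 of the 30 was called higher than WT and 0 lower (3 and 0 at an unadjusted p under 0.05, limma), against a background of 12.3% of all tested genes called higher and 6.82% of those under 1 TPM in WT. The 1 call was Gm49394, at 0.55 ± 0.13 on the log2 scale (limma adjusted p = 0.00736). None of the 11 protein-coding genes was called, and none had an unadjusted p under 0.05, the lowest being 0.145 for Tfap2a, which had 0.240 ± 0.0529 TPM in Ring1a-KO and 0.390 ± 0.180 in WT (SD, n = 3, limma). For Meis2 the log2 change was 0.19 ± 0.28 (limma adjusted p = 0.683), a difference smaller than its SE. The count of calls was 3 without Ring1a-KO replicate 1 and 2 without replicate 3, with 0 of the 11 protein-coding genes called in either. This comparison shares the WT libraries with the previous one and the Ring1a-KO libraries with the first.

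The Pcgf-4KO label leaves Pcgf2 and Bmi1, the Pcgf genes of canonical PRC1, intact. Levels there were fixed by the rule to be under 1 TPM, and the values are given as a description. They were still above WT for most of the protein-coding genes: all Pcgf-4KO libraries were above all WT libraries in 10 of the 11, Meis2 being the exception, and in 13 of all 32. Over all tested genes 51% met the same condition, and 58.7% of those under 1 TPM in WT. The log2 difference from WT was 0.30 to 0.78, with a median of 0.60. As a share of the Pcgf-6KO mean TPM, the Pcgf-4KO mean was 5.73% for Dlx2, 8.65% for Meis2, 9.55% for Alx1 and 10.6% for Tfap2a, and reached 30.7% for Lhx1 and 36.6% for Vdr, with a median of 18.2%.

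Ring1b-KO levels were above Pcgf-4KO in the mean for all 11 genes. The libraries did not overlap in 6 of them, Meis2, Tfap2a, Dlx2, Nkx2-3, Nrn1 and Vdr, and in 7 of all 32. Over all tested genes 24.9% met the same condition, and 21.9% of those under 1 TPM in WT. The count over all 32 is near these shares, and the 11 were taken after the values had been seen. Because the rule holds Pcgf-4KO down, the order of Ring1b-KO above Pcgf-4KO is partly set by the choice of genes. As a share of the double knockout mean TPM, Ring1b-KO reached 86.0% for Meis2, 68.8% for Tfap2a, 67.3% for Nrn1 and 57.4% for Vdr, and 19.6% to 35.7% for the other 7.

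Pcgf-6KO and the double knockout were both used by the rule and differed little for most of the 11. The log2 difference of Pcgf-6KO minus the double knockout ran from -0.18 to 1.03, with a median of 0.09. The Pcgf-6KO libraries were all above the double knockout libraries in 3 genes, Tfap2a, Dlx2 and Alx1, and in 8 of all 32. The background was 29.8% of all tested genes and 36.4% of those under 1 TPM in WT. Dlx2 averaged 10.2 ± 0.162 TPM in Pcgf-6KO and 4.52 ± 1.05 in the double knockout, a ratio of 2.25. The ratio was 1.87 for Alx1 and 1.75 for Tfap2a, and between 0.847 and 1.11 for the other 8.

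The thresholds cut through a continuous range. Just inside the limit of 1 TPM in Pcgf-4KO lay Gm31166 at 0.997, Tfap2a at 0.987 and Gm49394 at 0.980 TPM, and just outside it lay Gm29793 at 1.02, Oasl1 at 1.02 and Osr2 at 1.03 TPM. Just inside the limit of 2 TPM in Pcgf-6KO lay Lhx1 at 2.09 TPM, Nkx2-2 and Rps15a-ps7 at 2.24 TPM, and just outside it lay Gm44466 and Nkx6-1 at 1.98 and Foxa1 at 1.94 TPM. For the double knockout, Gm42416 at 2.07, MSTRG.3568 at 2.13 and Nkx2-2 at 2.18 TPM lay inside and Gm20659 at 1.95, MSTRG.10005 and Adra2a at 1.94 TPM outside. For WT, Gm11839 at 0.930, Rps15a-ps7 at 0.833 and MSTRG.2085 at 0.787 TPM lay inside and Mrc1 at 1.003, MSTRG.4882 at 1.04 and Gm47106 at 1.08 TPM outside.

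The low-Pcgf-4KO genes were set beside the wider list of homeobox genes outside the Hox clusters. Of 124 such genes in the table, 106 were under 1 TPM in WT and 44 of these were at 2 TPM or more in both the double knockout and Pcgf-6KO. Of the 44, 25 were at 2 TPM or more in Pcgf-4KO, 11 lay between 1 and 2 TPM, and 8 were low-Pcgf-4KO genes. The 8 had a median of the group mean of 4.00 TPM in the double knockout, 4.31 in Pcgf-6KO, 0.585 in Pcgf-4KO and 0.920 in Ring1b-KO. The other 36 had 6.88, 4.84, 2.63 and 2.22 TPM in the same groups. Over the whole list, 78 of 95 tested genes were called higher and 3 lower in Ring1b-KO against Ring1a-KO, so the 8 were not set apart in this direction by these counts. Against WT, 77 of the 95 were higher and 3 lower in Ring1b-KO, and 9 were higher and 7 lower in Ring1a-KO.

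In the list of other developmental transcription factors 34 were silent in WT and at 2 TPM or more in both the double knockout and Pcgf-6KO, and 1 of these, Tfap2a, was low in Pcgf-4KO. Of its 119 tested genes, 74 were higher and 18 lower in Ring1b-KO against Ring1a-KO. Among signalling ligands and antagonists 11 were high in both, among germline genes 11 and among trophoblast genes 4, and 0 of these were low in Pcgf-4KO. Of 90 tested signalling genes 35 were higher and 22 lower in Ring1b-KO against Ring1a-KO, of 71 germline genes 64 and 2, and of 21 trophoblast genes 15 and 3. The canonical PRC1 genes had 8 of 14 higher and 5 lower, the variant PRC1 genes 10 of 27 and 8, and the PRC2 genes 4 of 12 and 2.

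**Figure D3:**
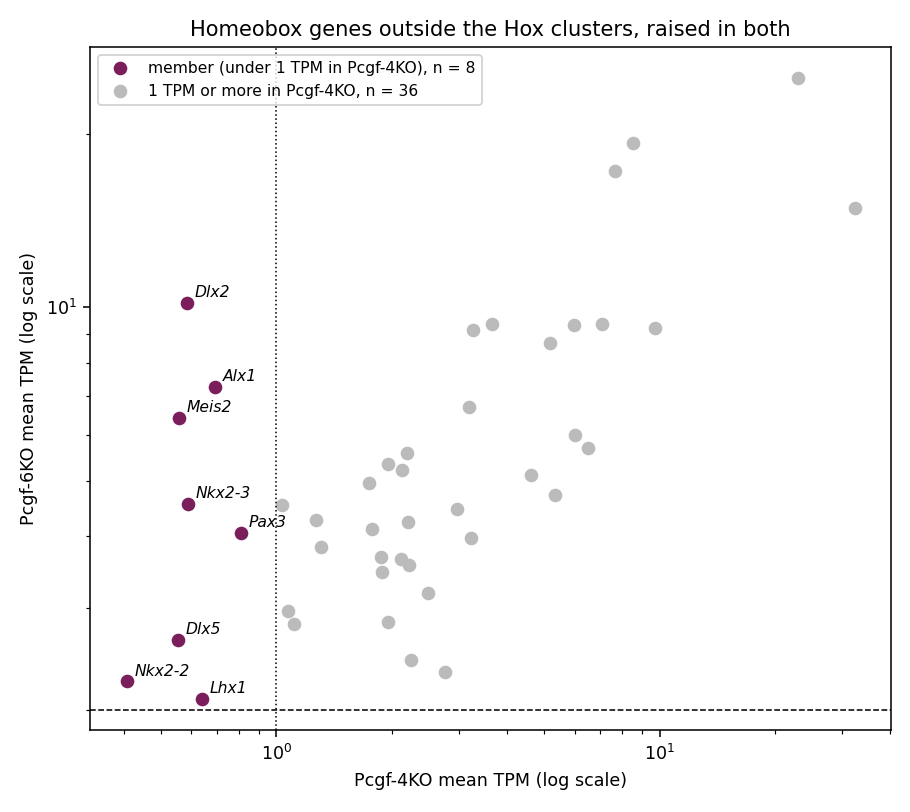
Mean TPM in Pcgf-6KO (vertical) against mean TPM in Pcgf-4KO (horizontal), both on log scales, for 44 homeobox genes outside the Hox clusters that were silent in WT and at 2 TPM or more in the double knockout and Pcgf-6KO. The dotted line is 1 TPM in Pcgf-4KO and the dashed line 2 TPM in Pcgf-6KO; the 8 low-Pcgf-4KO genes lie left of the dotted line by construction, Dlx2 highest at 10.2 TPM.

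The Dlx genes lie in convergent pairs, and their partners were read. Dlx1, 9427 bases from Dlx2 on the opposite strand, averaged 1.53 TPM in the double knockout, 1.54 in Pcgf-6KO, 0.453 in Pcgf-4KO, 0.643 in Ring1b-KO, 0.0300 in Ring1a-KO and 0.0967 in WT, and so stayed under the limit of 2 TPM. Dlx6, 9237 bases from Dlx5 on the opposite strand, averaged 7.36, 4.24, 2.20, 3.97, 0.0733 and 0.0600 TPM in the same groups, and was not low in Pcgf-4KO. Other genes overlap the set on the opposite strand. Fars2, a mitochondrial synthetase gene, overlaps Nrn1 and averaged 19.3, 22.6, 18.8, 14.2, 14.3 and 14.2 TPM. The sources used here do not give the strand use of the libraries, so reads of such pairs cannot be told apart.

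The other 21 genes include 10 that were uneven from library to library, the small RNA genes. These 10 have exons of 133 to 165 bases and were above 0 in 2 to 5 of the 6 double knockout and Pcgf-6KO libraries. Snora16a, within the host gene Snhg12, had 0, 41.7 and 0 TPM in the double knockout, 0, 84.6 and 0 in Pcgf-6KO, 0, 57.7 and 0 in Ring1b-KO, 29.2, 0 and 0 in Ring1a-KO, and was listed at 0 in every Pcgf-4KO and WT library. Such a gene met the rule through 1 library per group. Snord15b lies within Rps3, Gm25835 within Eif4a1 and Gm25745 within Hsp90b1, and each was above 0 in 2 of the 6 libraries.

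Near-identical copies are counted as separate genes here. Gm44367, Gm19658, Gm44484 and Gm44314, annotated as miRNA genes beside or across clustered histone genes on chromosome 13, held equal values, pair by pair, in 17 or 18 of the 18 libraries, of which 5 or 6 were above 0 and the rest shared zeros. Rnu1b1 and Rnu1b2, copies of the U1 spliceosomal RNA, were equal in 18 of 18, 4 of them above 0. They are uncertain, since the authors' counting could split shared reads.

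The pseudogenes and noncoding transcripts were above 0 in 5 or 6 of the 6 double knockout and Pcgf-6KO libraries. Gm11839 averaged 2.62 TPM in the double knockout, 4.95 in Pcgf-6KO, 0.447 in Pcgf-4KO, 2.80 in Ring1b-KO, 1.40 in Ring1a-KO and 0.930 in WT. Its Ring1b-KO libraries, at 1.96 to 3.25 TPM, overlapped the double knockout range of 2.45 to 2.82. Gm49394, a model gene that overlaps the imprinted growth factor gene Igf2, averaged 2.55, 3.38, 0.980, 0.817, 0.623 and 0.113 TPM in the same groups, while Igf2 averaged 543, 734, 439, 78.6, 31.3 and 19.04 TPM. Its reads cannot be told apart from those of Igf2 here. Gm42416 spans the protocadherin clusters, overlapping 83 annotated genes, and is likewise uncertain.

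**Figure D4:**
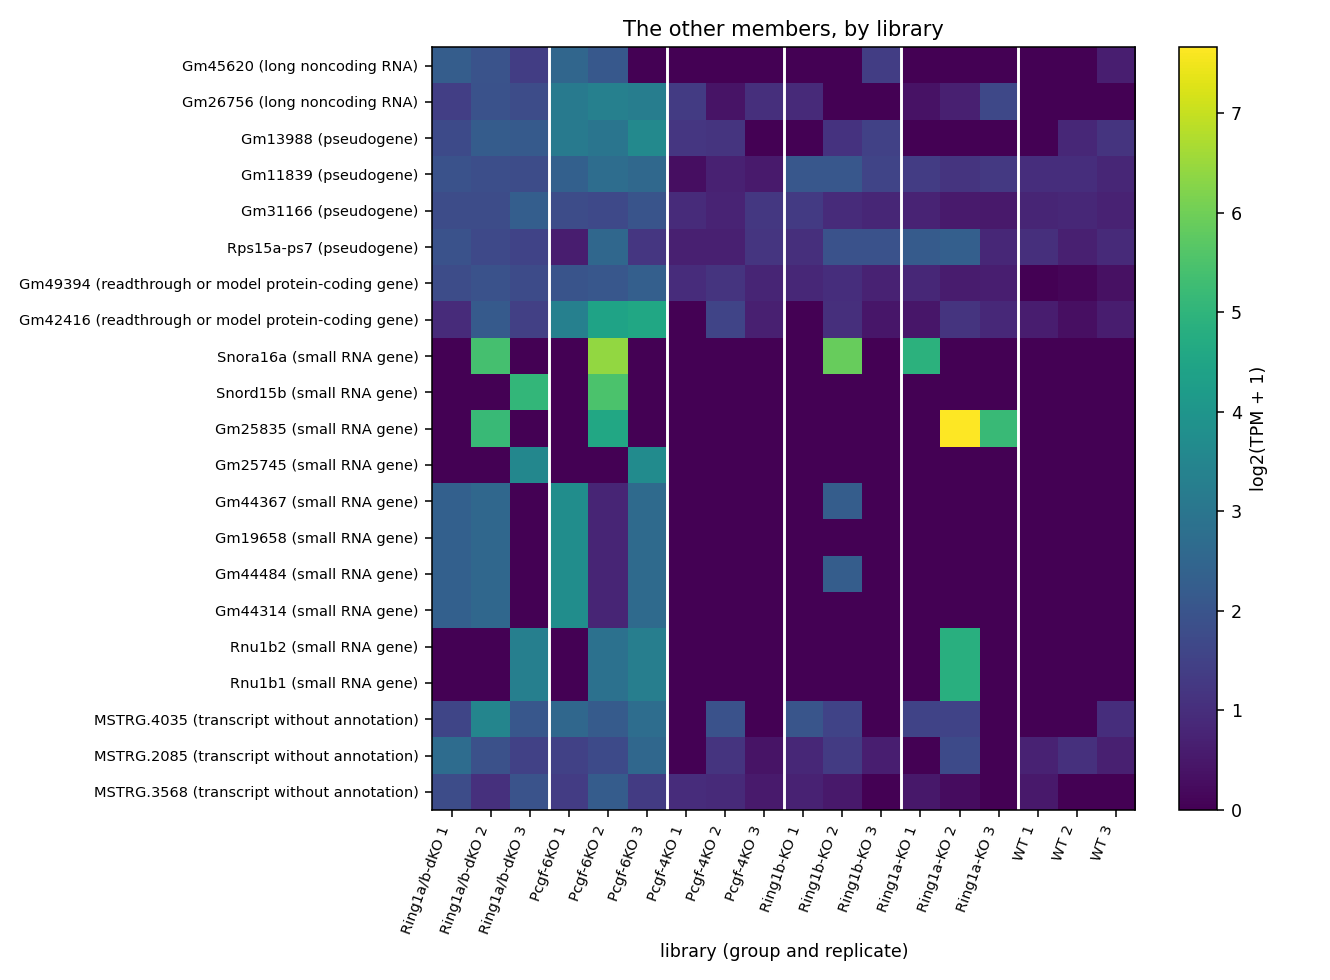
Level of the 21 other genes in log2(TPM + 1) (colour) in each of the 18 libraries, with the groups parted by white lines. The small RNA genes are at 0 in all Pcgf-4KO and WT libraries and above 0 in 2 to 5 of the 6 double knockout and Pcgf-6KO libraries, and Gm25835 is highest in a Ring1a-KO library, at 202 TPM.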

How the data were processed

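RNA of mouse embryonic stem cells was sequenced in 18 libraries, 3 in each of 6 genotype groups, after TruSeq preparation per the labels. The authors deposited TPM (a transcript share) for 56551 genes, and each library sums to 1000000 within rounding. TopHat2 2.1.1, RSEM, edgeR and the build GRCm38.p5 are listed in the submitters' processing notes, with no role stated. The 6 columns of group means were not used. Read depth is unknown, so counting error could not be estimated. Symbols and positions came from GENCODE (GRCm38), promoters from RefSeq (GRCm38.p6).

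Genes that reached 1 TPM in 3 or more libraries (17842) were tested as log2(TPM + 1) with limma 3.58.1 in R 4.3.3, 1 mean per group over all libraries (12 residual degrees of freedom, trend on the mean), two-sided, Benjamini-Hochberg over all tested genes, called at an adjusted p under 0.05. The step was tested on simulated data. The groups that chose the genes are described without a test.

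The members, marker lists and gene lists were chosen with earlier results of these data known, and the lists were written by hand. Genes were named by their class, level and differences between groups, with the targeted genes and the nearest neighbours of each threshold; Gm-named and unannotated genes beyond these were named after their values were seen. Alternatives were other pseudocounts, filters, scalings, thresholds, fits of the compared groups alone, a replicate block and leaving out each library.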

Additional observations from a re-analysis of the deposited data

How the results depend on the processing

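The number of genes chosen depended on the thresholds. It was 6 when every library had to meet its threshold, 12 with a low limit of 0.5 TPM, where Nkx2-2 was the only one of the 11 protein-coding genes left, 9 with a high limit of 4 TPM, and 29 of which 25 were shared after median ratio scaling of the libraries (which dropped Lhx1, Nkx2-2 and Vdr), against 32 as reported. Leaving out each library of the 4 groups of the rule gave 31 to 39. Without double knockout replicate 2 Nkx2-2 dropped out, without Pcgf-6KO replicate 3 Lhx1, and without Pcgf-4KO replicate 2 Tfap2a.

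Ring1b-KO against Ring1a-KO called 12 to 15 genes higher or lower when each library was left out, Ring1b-KO against WT 12 to 13, and Ring1a-KO against WT 1 to 3. Ring1a-KO against WT called 2 genes with a pseudocount of 0.1, median ratio scaling or quantile normalization, against 1 as reported, and the cause was not tested; the long noncoding RNA Gm26756 was called under each of these 3. For the 11 protein-coding genes 139 of 143 alternative values of Ring1b-KO against Ring1a-KO kept direction and call, 4 lost the call and 0 reversed. Against WT, 126 of 132 kept both and 6 lost the call, all of Nkx2-2, including without a filter (adjusted p = 0.0525, limma) and with quantile normalization (0.17).

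Scaling moved the whole table. The median change of all genes in Ring1b-KO against Ring1a-KO was 0.12 on the log2 scale, and 0 after median ratio scaling, and the share of calls that were higher was 66.5%, against 50.2% after median ratio scaling and 50% after quantile normalization. Against WT these shares were 67.0%, 48.8% and 48.0%.

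Same-numbered libraries of the compared groups did not deviate together, with 9 correlations of -0.034 to 0.071, so the replicate numbers were not taken to pair them. In 4, 2 and 3 of 6 libraries the best correlation was with the same number. With the replicate block 13 genes were called in Ring1b-KO against Ring1a-KO, 13 in Ring1b-KO against WT and 2 in Ring1a-KO against WT.

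The unknown depth and values near 1 TPM limit all of these results, and the 10 small RNA genes rest on a few libraries each.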
